A study of Mus musculus with 8 samples.

Results

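The genes described here are 32 genes of glycolysis, of the transport of glucose and lactate, and of the entry of pyruvate into mitochondria, together with Hif1a, which encodes the oxygen-regulated subunit of hypoxia-inducible factor 1. They were chosen by gene symbol and not by their values, though with earlier results of these data known. All 32 were found among the 48526 genes of the count table. Of these, 25 passed the filter on low counts and were tested together with all 9744 genes that passed. The filter required a normalized count, that is a read count scaled by a size factor of its library, of at least 20 in at least 4 libraries.

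Glycolysis turns glucose into pyruvate in the cytoplasm, with a small yield of ATP and with intermediates that feed the synthesis of nucleotides, lipids and amino acids. Lactate dehydrogenase turns pyruvate into lactate, which leaves the cell through monocarboxylate transporters, whereas pyruvate dehydrogenase commits pyruvate to oxidation in mitochondria. Most steps can be carried out by several isozymes, encoded by different genes, and early embryos rely strongly on glycolysis before the mature heart turns to oxidative metabolism.

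To compare the left and the right side of the mouse heart field, RNA from both sides of 4 single embryos was sequenced, as 4 left and 4 right libraries. All embryos were wild-type males of the C57bl6/J strain at stage E8.5f, when the heart tube is looping, and no agent or mutation distinguished the groups. The field was microdissected between the headfolds and the caudal limit of the second somite, without the heart and the back, and was cut at the midline. The embryos are named L29-3, L43-5, L46-8 and L49-3, and values in a series below follow that order.

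The libraries held between 1147446 and 3520753 counted reads, so that 3 reads correspond to between 0.852 and 2.61 CPM, the counts scaled to a common library total. All 8 genes listed as markers of the second heart field were among the tested genes, and their summed normalized counts ranged from 690 to 1088. The dissected tissue was mixed, since markers of cardiomyocytes, surface ectoderm, foregut endoderm, endothelium and neural tube were also present. In such bulk samples, fewer cells of a type and less RNA per cell cannot be told apart. Members of the surface ectoderm list differed widely, with Krt8 at 407 to 807 and Krt18 at 342 to 598. Tfap2a ranged from 37.8 to 88.8, whereas Trp63 and Grhl3 reached at most 3.24 and 19.0. The right library of L46-8 and both libraries of L49-3 stood apart, with 2.66%, 2.81% and 2.65% of reads on processed pseudogenes against 1.53% to 2.05% in the other 5. L49-3 also had the lowest summed counts of juxta-cardiac field markers, 48.0 on the left and 51.5 on the right against 203 to 425 in the other embryos. Its neural tube markers summed to 543 and 605, against 133 to 376, and its endothelium markers to 605 and 452, against 706 to 794. Of the 6 tested cardiomyocyte markers 0 were higher in L49-3 and 1 was called lower.

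The 32 genes were strongly expressed as a group in all the heart field libraries, and their share of all counted reads was 1.70% ± 0.129 in left and 1.70% ± 0.0967 in right libraries (SD, n = 4). Levels of different genes were compared as normalized counts per kilobase of exon. On this scale Pkm, the pyruvate kinase gene that closes glycolysis, had the highest mean over the 8 libraries, 1444. It was followed by Ldha at 1148, Aldoa at 839, Eno1 at 829, Pgk1 at 707, Slc2a1 at 560 and Tpi1 at 538. Ldha and Aldoa were separated, with 1031 in the lowest library of Ldha and 958 in the highest of Aldoa, whereas the ranges of all other neighbours among these genes overlapped. Within each library, however, Pkm exceeded Ldha and Eno1 exceeded Pgk1. The order of the other overlapping neighbours changed between libraries. The order depends on the length used: per kilobase of the longest transcript, Pkm still led at 2970, and Eno1 at 2199 came before Ldha at 2094 and Aldoa at 1578. At the other end, Pfkfb2, Eno2 and Pdk4 had means of 0.664, 0.549 and 0.197 per kilobase.

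**Figure D1:**
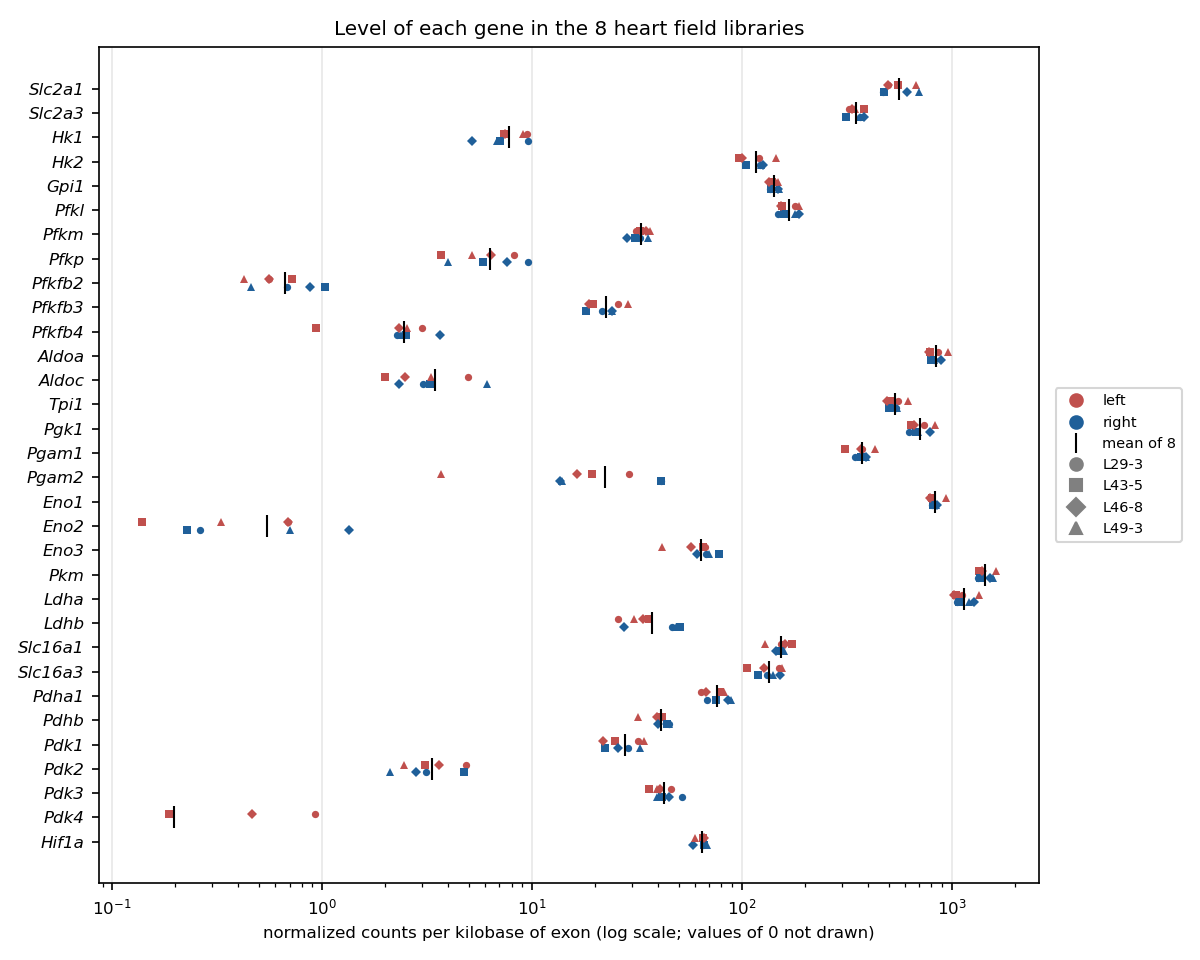
Normalized counts per kilobase of exon, on a log axis, of the 32 genes in 4 left (red) and 4 right (blue) libraries, with marker shapes for the embryos and a black tick for the mean of 8. Means run from 0.197 for Pdk4 to 1444 for Pkm, and red and blue points overlap for each gene that has reads on both sides.

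Slc2a1 encodes the widespread facilitative glucose transporter and Slc2a3 the high-affinity transporter found in neurons and in embryonic tissue. Slc2a1 normalized counts were 1737, 1949, 1735 and 2375 on the left and 1659, 1677, 2146 and 2438 on the right. Both libraries of L49-3 lay above the other 6, whereas the sides overlapped. Per kilobase, Slc2a1 made up 61.2% of this pair of transporters and led in 8 of 8 libraries. Its lead depended on the length of the genes, since without length scaling the share of Slc2a1 was 43.3%. Slc2a3 counts ranged from 2275 to 2757 in the 8 libraries, and the sides overlapped.

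Hexokinase traps glucose in the cell by phosphorylation. Hk2, the isozyme of muscle and of many growing cells, had normalized counts of 724, 577, 596 and 864 on the left and 728, 623, 751 and 739.5 on the right. The lowest counts were those of L43-5 and of the left side of L46-8. Hk2 made up 93.8% of hexokinase per kilobase, and Hk1, the isozyme known from brain, the remaining 6.25%, or 10.9% with the longest transcript as the length. The next enzyme, glucose phosphate isomerase, is encoded by Gpi1, with counts of 919, 899.7, 866 and 965 on the left and 881, 885, 959 and 971 on the right. The whole range of Gpi1 was narrow, and the sides overlapped.

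Phosphofructokinase catalyses the committed step of glycolysis, and its subunits are named after liver (Pfkl), muscle (Pfkm) and platelets (Pfkp). Pfkl provided 81.0% of the subunits per kilobase, Pfkm 16.0% and Pfkp 3.06%. Without length scaling Pfkm made up 8.40% and Pfkp 6.44%. Pfkl counts were 1196, 1037, 1028 and 1246 on the left and 992, 1055, 1247 and 1189.9 on the right, with overlapping sides. Pfkp counts were 110.3, 49.5, 85.5 and 69.7 on the left and 129, 78.4, 102 and 53.2 on the right. L29-3 thus had the highest Pfkp count on each side. Pfkp shares 748 of its 13401 exon bases with Pitrm1 on the opposite strand, and reads of the shared bases cannot be told apart where the strand was not used in counting. The same holds for 741 of 6452 exon bases of Gpi1 and 603 of 3734 of Pdha1. The PFKFB enzymes make and remove the strongest activator of phosphofructokinase. Among them Pfkfb3 led with 87.8%, at counts of 195, 148, 142 and 217 on the left and 163, 137, 183 and 181 on the right.

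Aldolase splits the sugar into triose phosphates. Aldoa, the muscle and embryonic isozyme, made up 99.6% of the step beside the brain isozyme Aldoc, with counts of 2492, 2304, 2259 and 2788 on the left and 2384, 2329, 2589.9 and 2401 on the right. The triose phosphates are interconverted by the product of Tpi1, whose counts were 1534, 1406, 1349 and 1700.0 on the left and 1493, 1379, 1483 and 1504 on the right. In both genes the highest library was the left side of L49-3. The kinase of the first ATP-yielding step is encoded by Pgk1, with counts of 1648, 1443, 1491 and 1869 on the left and 1411, 1516, 1761 and 1557 on the right. Again the left side of L49-3 was the highest and the sides overlapped.

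Phosphoglycerate mutase and enolase prepare the last ATP-yielding step. Pgam1, the widespread isozyme, had counts of 739, 613, 729 and 852 on the left and 687, 729, 773 and 773 on the right. Pgam2, the muscle isozyme, contributed 5.72% per kilobase, with a range between libraries from 0.851% to 10.6%. Eno1, the widespread enolase, made up 92.8% of its step, with counts of 4237, 4332, 4235 and 5064 on the left and 4318, 4365, 4573 and 4542 on the right. Eno3, the muscle enolase, made up 7.16%, and Eno2, the neuronal enolase, 0.0616%. The share of Eno3 was 3.14% with the longest transcript as the length and 2.44% without length scaling. Pkm counts, which do not distinguish the splice forms of pyruvate kinase, were 6998, 6715, 6964 and 8142 on the left and 6691, 6829.9, 7607 and 7844 on the right. Both libraries of L49-3 exceeded the other 6 in Pkm.

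Lactate dehydrogenase subunits come from Ldha, which predominates in glycolytic tissues, and Ldhb, which predominates in the mature heart. Ldha counts were 3707, 3478, 3412 and 4469.9 on the left and 3516, 3584, 4219 and 4012 on the right. Ldha was the predominant subunit in 8 of 8 libraries, with a share of 96.8% per kilobase against 3.20% for Ldhb, or 1.55% for Ldhb without length scaling. Lactate leaves or enters cells through the products of Slc16a1 and Slc16a3. Slc16a1 counts were 683, 765, 708 and 571 on the left and 671, 672, 641 and 703 on the right. Slc16a3, the transporter typical of cells that export lactate, had counts of 802, 565, 680.4 and 827 on the left and 701, 632, 806 and 749 on the right. Neither transporter dominated, since Slc16a1 made up 53.1% of the pair and led in 6 of 8 libraries, and 48.1% when the longest transcript was used as the length.

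Pyruvate dehydrogenase is represented by the subunits of its first enzyme, and its kinases switch the complex off. Pdha1 counts were 238, 293, 253 and 308 on the left and 254, 280.1, 321 and 332 on the right. Pdhb counts ranged from 124 to 174. Of the kinases, Pdk3 made up 57.6% per kilobase and Pdk1 37.6%, and without length scaling the order turned, with 64.0% for Pdk1. Pdk3 counts were 118, 92.6, 104 and 101 on the left and 132, 106, 115 and 101 on the right. Pdk1, a target of hypoxia-inducible factor, had counts of 249.7, 193, 170.1 and 265 on the left and 224, 173, 200.5 and 256 on the right, with L49-3 above the other embryos. Hif1a counts were 383, 387, 389.9 and 353 on the left and 385, 388, 345 and 404 on the right.

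**Figure D2:**
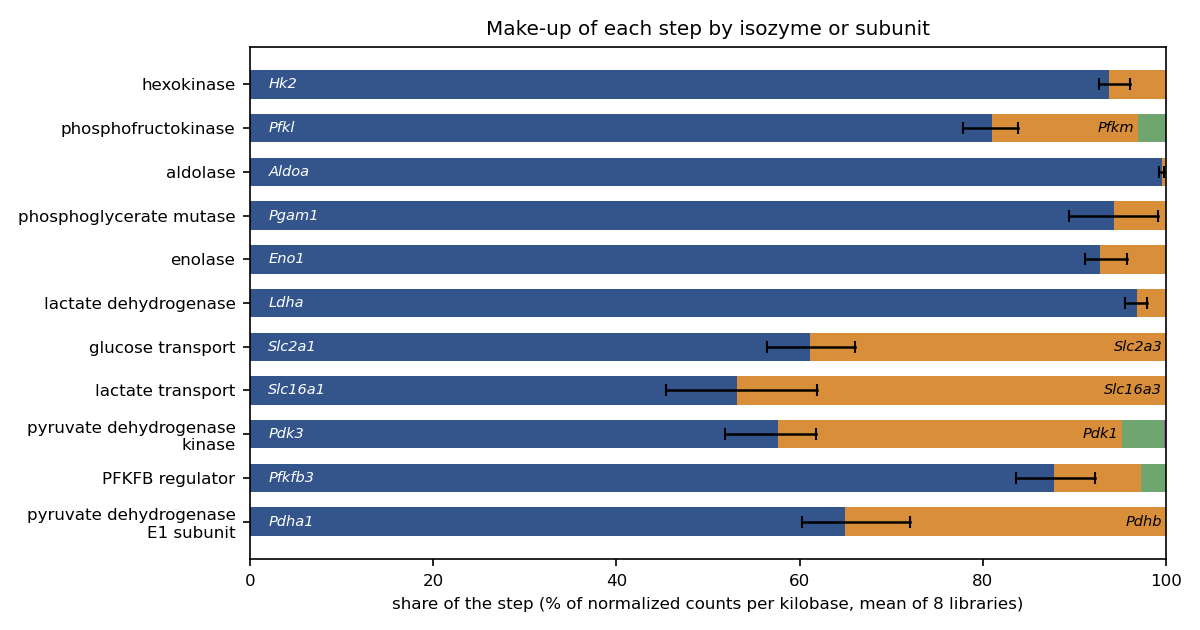
Share of each isozyme or subunit in its step, in % of normalized counts per kilobase, as the mean of 8 libraries, with the black line from the lowest to the highest library for the leading gene. Segments follow each other from the highest to the lowest share, and those above 10% carry the gene name. Hk2, at 93.8% (89.1% with the longest transcript as the length), Aldoa, Pgam1, Eno1 and Ldha each made up more than 90% of their step, and the lactate transporters were nearly even.

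The 7 genes that were not tested belonged to the lowest isozymes of their steps. Pgam2 had 183 reads in all and a highest normalized count of 34.7, and it reached 20 in 3 libraries. Aldoc had 93 reads, Pdk2 100, Pfkfb4 100, Pfkfb2 45 and Eno2 20, with highest normalized counts between 6.34 and 19.9. Pdk4, the kinase that is induced by fasting in adult tissues, had 7 reads, in 3 left libraries, and 0 in the 4 right libraries. Such counts, with 3 reads or fewer allowed by a count of 0 in a library, were too low to compare the sides.

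The side comparison asks whether glycolysis differs between the left and the right heart field. No gene of the group reached an adjusted p under 0.05 in edgeR's quasi-likelihood test with embryo as a block and Benjamini-Hochberg adjustment, against 1 of all 9744 genes (0.0103%). At the threshold of the study, which asks for 1.2-fold or more and for an unadjusted p of 0.05 or less, 1 of 25 genes was called, Ldhb, compared with 3.05% of all genes in either direction and 1.42% in the direction of Ldhb. Of the 25 genes, 9 had higher and 16 lower fitted levels on the left. The median of their log2 fold changes was −0.02, against −0.00 for all tested genes. The median size of the change was 0.04 on the log2 scale against 0.09 for all genes. These medians were not matched for abundance. A mean normalized count of at least 1000 was found in 9 of the 25 genes and in 217 of the tested protein-coding genes. From 20 to 100 there were 3 and 4685. The part of abundance in the smaller median was not tested. The 95% intervals of 16 genes lay wholly within a 1.2-fold difference in either direction. How many of all tested genes had such an interval was not counted, so the 16 describe these genes alone. Half-widths of the 25 intervals ran from 0.115 to 0.412 on the log2 scale.

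**Figure D3:**
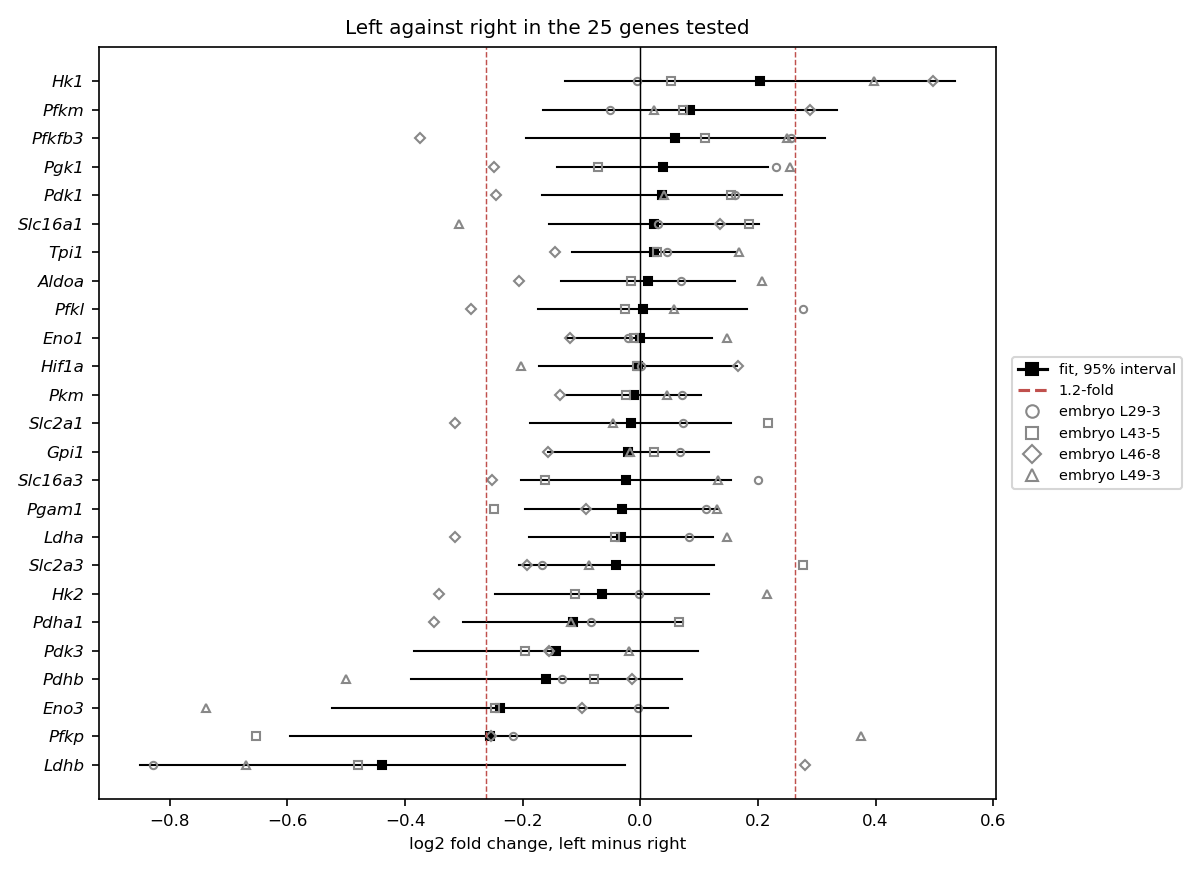
Log2 fold change, left minus right, of the 25 tested genes, with the fitted value and its 95% interval in black, the ratio of each embryo as an open grey symbol and the 1.2-fold limits as dashed lines. Fitted values run from −0.44 for Ldhb to 0.20 for Hk1, and Ldhb alone has an interval that leaves out 0.

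In 3 of 4 embryos, Ldhb counts were lower on the left side. Its normalized counts were 40.5, 56.7, 52.9 and 48.0 on the left and 73.0, 79.5, 43.1 and 76.4 on the right. The sides overlapped through the right library of L46-8, and the left mean was 49.5 ± 6.98 against a right mean of 68.0 ± 16.8 (SD, n = 4). The log2 fold change was −0.44 with an SE of 0.189, and edgeR gave a p of 0.039 before and 0.987 after adjustment. The gene had 521 reads in the 8 libraries together. In DESeq2 the unadjusted p was 0.129, and in edgeR it was 0.18 without L29-3, 0.122 without L43-5 and 0.11 without L49-3.

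The group holds other isozymes known from muscle. Pfkm had a log2 fold change of 0.08 and Aldoa of 0.01, Hk2 had −0.06, and the interval of each included 0. Eno3 and Pgam2, the muscle isozymes of enolase and phosphoglycerate mutase, are given in full as genes chosen after their values were seen. Eno3 counts were 117, 114, 100.1 and 72.8 on the left and 118, 136, 107 and 121 on the right, lower on the left in each embryo, with a log2 fold change of −0.24 (SE 0.131) and an edgeR unadjusted p of 0.0935. Pgam2 counts were 24.3, 16.3, 13.8 and 3.10 on the left and 34.7, 34.7, 11.4 and 11.6 on the right. As for Ldhb, L46-8 was the embryo in which the left count was the higher. The 7 listed cardiomyocyte markers summed to 4650, 2475, 2861 and 574 on the left and 4420, 3719, 1624 and 1991 on the right, of which 6 were tested and 0 were higher on the left in the fit. The part of cardiomyocyte content in the values of Ldhb, Eno3 and Pgam2 was not tested.

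The 9 tested genes of the group with a mean normalized count of at least 1000 differed little between the sides, with log2 fold changes from −0.04 for Slc2a3 (95% interval −0.21 to 0.12) to 0.04 for Pgk1 (−0.14 to 0.22). Pkm had a log2 fold change of −0.01 (95% interval −0.13 to 0.10), Eno1 −0.00 (−0.13 to 0.12) and Tpi1 0.02 (−0.12 to 0.16). For Slc2a1 the value was −0.02, for Ldha −0.03, for Aldoa 0.01 and for Pfkl 0.00. As a ratio of left to right, the interval of Pkm ran from 0.916 to 1.07 and that of Eno1 from 0.917 to 1.09. Of the 25 genes, 3 had the same direction in all 4 embryos, Eno3, Pdhb and Pdk3, each lower on the left, which is 12% against 12.4% of all tested genes. Pfkp had a wider interval, from −0.60 to 0.09 around −0.26, and it passed the study threshold when L49-3 was left out, with a log2 fold change of −0.38 and an edgeR unadjusted p of 0.0273.

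The embryos did not share a direction for the group. Of the 25 genes, 14 were higher on the left in L29-3 and 10 were so in L43-5. L46-8 had 5 such genes and L49-3 had 15. The median log2 ratio was 0.03, −0.02, −0.16 and 0.04. In L46-8 the right library was the one with 2.66% of reads on processed pseudogenes, against 1.79% on the left. With L29-3 and L43-5 alone, the 2 embryos without a library that stood apart, the median log2 fold change of the group was 0.02 and Ldhb was −0.64, with an edgeR unadjusted p of 0.012.

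Differences between embryos were then examined, since all 4 were of the same stage and genotype. In the edgeR test of the 3 embryo coefficients together, 6 of 25 genes had an unadjusted p under 0.05, against 9.99% of all genes, and 0 had an adjusted p under 0.05, against 0.174%. The 6 genes were Pfkp, Slc2a1, Pdk1, Slc16a3, Hk2 and Pkm, with unadjusted p-values from 0.00248 to 0.0258. The error in this test is the spread between the sides of an embryo, so that the p-values compare single animals. The 6 genes belong to different steps. Other genes of the same steps had larger unadjusted p-values in this edgeR test, such as 0.311 for Pfkl, 0.94 for Slc2a3 and 0.568 for Slc16a1.

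Except for Pfkp, the 6 genes with an unadjusted p under 0.05 in that edgeR test had their highest fitted level in L49-3. Against the mean of the other 3 embryos, 19 of 25 genes had higher fitted levels in L49-3, whereas 49.8% of all genes did. The median log2 fold change was 0.15 against −0.00 for all genes. The same count was 12 in L29-3, 6 in L43-5 and 10 in L46-8, whereas 50.3%, 53.3% and 53.1% of all genes were higher there. The medians of the group were −0.00, −0.12 and −0.01, against 0.00, 0.01 and 0.01 for all genes. These contrasts share libraries, so that a high value in L49-3 lowers the others.

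Slc2a1 was called in this contrast. Its log2 fold change in L49-3 was 0.41 with an SE of 0.0889, and the edgeR adjusted p was 0.0454, where 0.606% of all genes were called higher. The call was lost with scaling by library size alone (adjusted p 0.0526), without L29-3 (0.121) and without L43-5 (0.0504), while the log2 fold change stayed between 0.38 and 0.41 in these fits. The other genes of the group did not pass adjustment, with log2 fold changes of 0.38 for Pdk1 (adjusted p 0.12), 0.20 for Pkm (0.129), 0.28 for Hk2 (0.194) and 0.22 for Ldha (0.227) in the edgeR test. Pfkp went the other way, at −0.52 in L49-3 and 0.74 in L29-3, with edgeR adjusted p-values of 0.262 and 0.264.

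**Figure D4:**
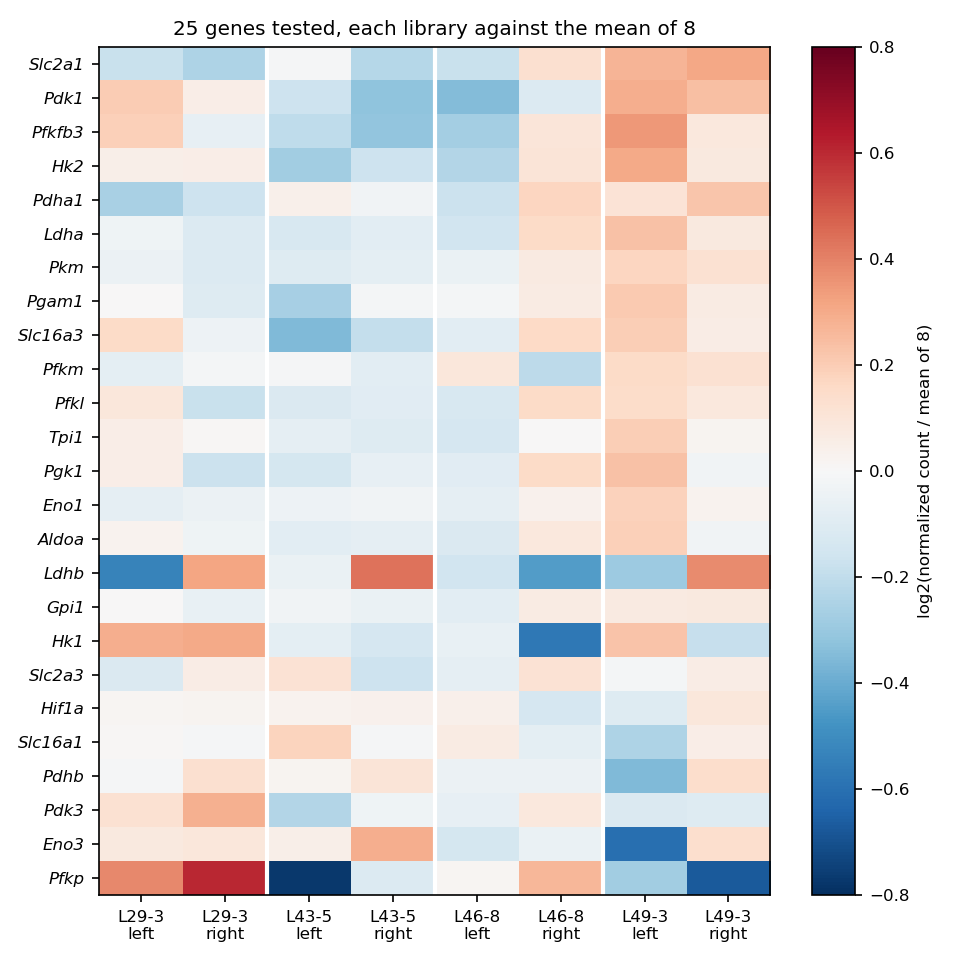
Log2 ratio of the normalized count of each library to the mean of the 8, for the 25 tested genes, ordered by the log2 fold change of L49-3 against the other embryos. Slc2a1 and Pdk1 lead the order, and Pfkp, at −0.52, closes it. The L49-3 columns and the right column of L46-8 are red for most genes in the upper rows.

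Both libraries of L49-3 exceeded the other 6 in Slc2a1, Pdk1, Pkm, Gpi1 and Pfkm, that is in 5 of 25 genes against 7.83% of all tested genes. They lay below the other 6 in 0 of 25, but the share of all genes below is not given here for comparison. When the right library of L46-8 was grouped with L49-3, a grouping chosen after the values were seen, the 3 libraries exceeded the other 5 in 8 genes, against 6.89% of all. These were Slc2a1, Hk2, Pkm, Pdha1, Ldha, Pgam1, Eno1 and Gpi1. The same 3 libraries held the most reads on processed pseudogenes. Slc2a1, Hk2 and Pdk1 have no near-identical gene in the annotation. For Eno1, 3 near-identical genes with reads summed to 230.2, 213, 269 and 463 on the left and 283, 172, 459 and 377 on the right, so that they were highest in the libraries in which Eno1 was highest. Reads on near-identical genes came to 6.31% of those on Pgam1, 6.21% for Eno1, 3.44% for Pgk1, 3.18% for Pkm and 3% for Gpi1.

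Abundant genes in general were higher in L49-3. Among the 217 protein-coding genes with a mean normalized count of at least 1000, 74.7% were higher in L49-3, with a median log2 fold change of 0.07. The 9 glycolysis genes in that range were all higher, with a median of 0.16, and Slc2a3, which belongs to them, had 0.03. Between 500 and 1000, 57% of 412 genes and 4 of 5 genes of the group were higher, with medians of 0.03 and 0.19. Between 100 and 500, 46.5% of 3816 genes and 4 of 8 genes of the group were higher, and below 100, 46.8% of 4685 genes and 2 of 3 of the group. Hif1a itself was at −0.00 in L49-3. L49-3 and the right library of L46-8 also had the fewest counted reads, 1237593 and 1147446 in L49-3 and 1507857 in L46-8. The other libraries held 1535626 to 3520753, with the most in the right library of L43-5. The part that sequencing depth, abundance, reads on pseudogenes and the tissue make-up of L49-3 had in these values was not tested.

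Promoter stretches are shown for the 6 genes with the smallest p between the embryos and for Ldhb, because several of these genes are known targets of hypoxia-inducible factor, whose response element has the core ACGTG or GCGTG. The search covered both strands, so that CACGT and CACGC also count, and CACGTG counts on either strand. The windows ran from 250 bases before to 50 after a start site, and sequences are those of RefSeq on GRCm38.p6. At least 1 core was present in 37 of 47 windows of the group (78.7%) and in 43.8% of all 32851 windows. By gene, 27 of 31 with a window had a core, and the share by gene was not counted over all genes. Windows of a gene can overlap, as for Eno1, so that the same core can count again. Every core contains the pair CG, and the part of the CG content of the windows in these shares was not tested. A match is a string of letters and not a bound site. The 150 bases before the first listed start site of each gene follow with the cores in capitals, for Pfkp (chr13:6648772-6648921, minus), Slc2a1 (chr4:119108595-119108744, plus), Pdk1 (chr2:71873074-71873223, plus), Slc16a3 (chr11:120948917-120949066, plus), Hk2 (chr6:82774455-82774604, minus), Pkm (chr9:59656426-59656575, plus) and Ldhb (chr6:142507958-142508107, minus), each with its strand.
Pfkp: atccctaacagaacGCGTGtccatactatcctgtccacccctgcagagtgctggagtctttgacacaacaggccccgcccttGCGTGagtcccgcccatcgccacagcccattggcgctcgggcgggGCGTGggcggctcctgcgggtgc
Slc2a1: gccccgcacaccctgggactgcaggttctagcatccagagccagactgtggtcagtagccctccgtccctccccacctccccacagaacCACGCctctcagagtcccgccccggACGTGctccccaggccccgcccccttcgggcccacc
Pdk1: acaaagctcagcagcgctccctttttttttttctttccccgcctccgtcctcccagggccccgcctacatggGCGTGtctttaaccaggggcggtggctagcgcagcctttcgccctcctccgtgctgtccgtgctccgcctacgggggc
Slc16a3: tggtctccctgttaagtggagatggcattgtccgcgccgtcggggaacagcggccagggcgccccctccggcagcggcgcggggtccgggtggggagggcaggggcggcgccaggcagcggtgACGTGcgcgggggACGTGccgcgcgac
Hk2: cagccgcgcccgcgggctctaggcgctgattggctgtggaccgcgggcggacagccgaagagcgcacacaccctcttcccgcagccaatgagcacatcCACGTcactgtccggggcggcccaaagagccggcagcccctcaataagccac
Pkm: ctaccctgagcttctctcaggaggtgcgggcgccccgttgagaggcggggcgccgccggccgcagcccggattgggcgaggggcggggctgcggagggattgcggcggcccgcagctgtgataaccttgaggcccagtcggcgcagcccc
Ldhb: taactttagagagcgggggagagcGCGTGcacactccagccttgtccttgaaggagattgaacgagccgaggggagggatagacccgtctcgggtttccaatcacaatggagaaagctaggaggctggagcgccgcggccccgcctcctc
Pfkp carried 3 cores, Slc2a1 and Slc16a3 carried 2 each, and those of Slc16a3 lay close to the start site. Pdk1, Hk2 and Ldhb carried a single core in these stretches, and Pkm carried 0. The full first windows held 4 cores for Pfkp, 2 each for Slc2a1, Pdk1, Slc16a3 and Hk2, 1 for Ldhb and 0 for Pkm. Second windows, at other start sites, held 2 cores for Pkm and 0 for Pdk1.

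Other genes of the pathway were counted from lists. Of 42 genes of related enzymes, which cover neighbouring steps and tissue-specific isozymes, 20 were tested. Between the sides 12 were higher on the left and 8 on the right, at a median of 0.01 on the log2 scale, and 1 had an edgeR unadjusted p under 0.05, which was Gapdh. In L49-3, 15 of the 20 were higher and 5 lower, with a median of 0.09, whereas 49.8% of all genes were higher. Of 28 regulators and targets of hypoxia-inducible factor outside the group, 23 were tested, and 11 were higher and 12 lower on the left. The edgeR unadjusted p was under 0.05 for 3 of the 23, Epas1, Vegfa and P4ha1, against 4.36% of all genes, and the adjusted p was so for 0. Between the embryos 8 of the 23 had an edgeR unadjusted p under 0.05, against 9.99% of all genes. After adjustment 0 passed, against 0.174% of all genes. Epas1, which encodes another oxygen-regulated subunit, had a log2 fold change of 0.71 between the sides with an edgeR p of 0.0273 before and 0.987 after adjustment. In L49-3, 14 of the 23 were higher, against 49.8% of all genes, with a median of 0.16. Ddit4, a stress-induced inhibitor of mTORC1, was the only one called, at 0.79 with an edgeR adjusted p of 0.0454, where 0.606% of all genes were called higher.

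Gapdh encodes the enzyme between Tpi1 and Pgk1 in the pathway and is not among the 32 genes. Its normalized counts were 91.6, 109.5, 91.2 and 508 on the left and 662, 333, 464 and 149.6 on the right. It was lower on the left in 3 embryos and higher in L49-3, with a log2 fold change of −1.36 (SE 0.513), and an edgeR p of 0.0215 before and 0.987 after adjustment. Its value is uncertain, since 164 near-identical genes with reads held 13203 reads against 2336 on Gapdh itself. All reads on these genes were counted, also those outside the matching stretch. The genes include Peli2, with 863 reads and a match of 1085 bases at 90.8% identity. The sum of Gapdh and these genes was 1375, 1288, 1399 and 3261 on the left and 2223, 1348, 2860 and 2436 on the right. For Tpi1 and Pgk1, its neighbours in the pathway, reads on near-identical genes came to 1.2% and 3.44% of their own.

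**Figure D5:**
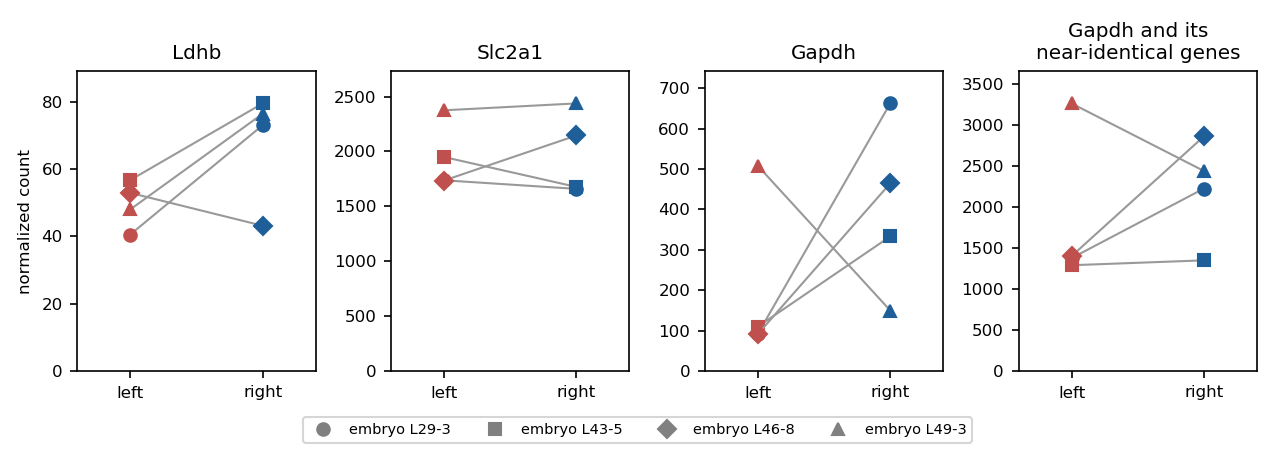
Normalized counts of Ldhb, Slc2a1, Gapdh, and Gapdh with its near-identical genes, on the left (red) and right (blue), with a grey line for each embryo and axes from 0. Ldhb is lower on the left except in L46-8, Slc2a1 is highest in L49-3 on both sides, and Gapdh is lower on the left except in L49-3.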

How the data were processed

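Poly-A RNA of the heart fields of 4 embryos, left and right separately, was sequenced as 8 libraries, and groups were taken from the sample labels. The authors aligned paired reads to GRCm38 (mm10) with HISAT2, excluded duplicate reads, and deposited raw counts per gene made with featureCounts of Subread, without normalization. Excluding duplicates can lower the counts of the most abundant genes. The versions of these tools, the annotation release and the use of the strand are not given in the sources used here, and the submitters' processing notes name limma 3.40.6. Symbols, exon lengths and positions came from GENCODE vM21, which gave a symbol to 48144 of 48526 identifiers.

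Genes that reached 20 DESeq2-normalized counts in 4 or more libraries were fitted with edgeR 4.0.16 in R 4.3.3, with TMM normalization, side and embryo as terms and the quasi-likelihood test, and p-values were adjusted by Benjamini-Hochberg over 9744 genes. Log2 ratios of single embryos used CPM with a pseudocount of 0.5. Floors cover counting error only. DESeq2 1.42.0, limma 3.58.1, other scalings and filters, fits without the replicate block and fits that leave out an embryo were tried. L29-3 and L43-5 alone, the L49-3 contrast with an embryo left out, and levels per kilobase of the longest transcript, were added after seeing the data. The sides of an embryo are paired by the animal, and the correlation of their deviations from the side means was 0.165, 0.19, −0.02 and 0.437, while left and right libraries of different embryos reached up to 0.255. Near-identical genes match a transcript at 90% identity over at least 300 bases, a length chosen after seeing the data.

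The 32 genes and all lists were chosen with earlier results of these data known. Values in each library are given for genes past the study threshold between the sides, for the 6 with the smallest p between embryos, and for the gene of highest level per kilobase at each step. Gapdh, Eno3 and Pgam2 were chosen after their values were seen.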

Additional observations from a re-analysis of the deposited data

Results flagged for a closer look

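Among 75 sets of 4 values, 50 of the counts of a gene on a side and 25 of the log2 ratios of a gene in the 4 embryos, 2 had a value whose gap to its nearest neighbour exceeded the 95% critical value of Dixon's test. Chance flags about 1 in 20 such sets. Tpi1 had a normalized count of 1379 in the right library of L43-5, below the other 3 right libraries, which lay between 1483 and 1504. Eno1 had 5064 in the left library of L49-3, above the other 3 left libraries, which lay between 4235 and 4332. The causes were not tested.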

How the results depend on the processing

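Between the sides, 0 genes of the group had an adjusted p under 0.05 in edgeR under every alternative scaling, filter, block and choice of embryos. DESeq2 and limma-voom were each run only with the main filter and all embryos, and also gave 0. The count past the study threshold, 1 in edgeR, was 0 with DESeq2, 2 without a filter (Ldhb and Pgam2), 2 with L29-3 and L43-5 alone (Ldhb and Pfkp), and 0 to 1 with an embryo left out. Without the replicate block that pairs the sides of an embryo it was 1, with a log2 fold change of −0.47 for Ldhb, and the block changed no call in the group. Without a filter, 23873 genes entered the fit and more of them had an adjusted p under 0.05. In the group there were 6 between the embryos, 2 in L29-3, 1 in L43-5 and 4 in L49-3. Among all genes there were 641, 141, 211 and 680. Of the genes of the group called so, Pgam2 alone was not in the main fit. In the L49-3 contrast the count was 0 with library size alone and 0 to 2 with an embryo left out. It was 2 with limma-voom (Pkm and Slc2a1), where 395 of all 9744 genes passed. Between embryos it was 0 to 1 with an embryo left out, the 1 being Slc2a1 without L46-8, where 236 of all genes passed. In the fits of the L49-3 contrast 18 to 20 genes were higher in L49-3. The median log2 fold change between the sides ranged from −0.04 to 0.03 with an embryo left out. The leading gene stayed the same in 10 of 11 steps with the longest transcript as length, where Slc16a3 led, and in 8 of 11 without length scaling, where Slc2a3, Slc16a3 and Pdk1 led. Small side differences changed sign: with library size alone Pkm was 0.0010, Eno1 0.011 and Hif1a 0.0086; without a filter 0.0024, 0.013 and 0.0098; Hif1a was 0.0012 in limma-voom; Eno1 was 0.0008 with at least 10 reads in every library and 0.0022 without the replicate block. With L29-3 and L43-5 alone, Slc2a1 was 0.15, Slc16a3 0.014, Pkm 0.023, Gpi1 0.044 and Ldha 0.019. With an embryo left out, the values ran from −0.097 to 0.083 for Slc2a1, −0.0095 to 0.12 for Pdk1, −0.098 to 0.051 for Slc16a3, −0.15 to 0.027 for Hk2, −0.037 to 0.030 for Pkm, −0.038 to 0.12 for Slc16a1, −0.048 to 0.025 for Gpi1, −0.085 to 0.10 for Pfkl, −0.0053 to 0.20 for Pfkfb3, −0.052 to 0.085 for Aldoa, −0.025 to 0.078 for Tpi1, −0.033 to 0.13 for Pgk1, −0.082 to 0.048 for Pgam1, −0.052 to 0.038 for Eno1, −0.093 to 0.061 for Ldha and −0.059 to 0.049 for Hif1a. Unless stated, the cause was not tested.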
